A study of Homo sapiens and Mus musculus with 19 samples.

Results

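Depletion of the RNA methyltransferase gene Nsun2 in mouse embryonic stem cells (mES cells) was examined in 6 libraries of chromatin-associated RNA (caRNA), out of 19 libraries in the whole series. Of these, 3 libraries came from cells transfected with an siRNA against Nsun2 (siNsun2) and 3 from cells transfected with a control siRNA (siControl), as the sample labels give them. A single mES cell library labelled Pspc1 WT and the K-562 libraries were left out. The labels give their genotypes as control and Nsun2 knockdown, and the genotype of the parent line for these libraries is not given in the sources used here. Cells were grown in serum with LIF, the GSK3 inhibitor CHIR99021 and the MEK inhibitor PD0325901, and passaged on gelatin to clear feeder cells. The siRNAs entered by lipid transfection. Which siRNA went into which library, the hours of treatment for these libraries and whether replicates were separate cultures are not given in the sources used here, so p-values measure the spread between these libraries, which may be technical. RNA was taken from the chromatin pellet after the cytoplasm and nucleoplasm had been removed.

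NSUN2 places 5-methylcytosine (m5C) on tRNAs, vault RNAs, some mRNAs and other transcripts. In the nucleus it is one of the enzymes that can mark RNA held on chromatin, where TET2 can oxidise the mark and the methyl-binding protein MBD6 can read it. Retained RNA of this kind is largely nascent and intronic, together with long noncoding RNAs, so a gene's level here follows its transcription and the retention of its transcripts rather than its cytoplasmic mRNA. The comparison asks which genes hold more or less of this RNA when Nsun2 is depleted.

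Gene counts came to 62989044 to 66832780 per siControl library and 58078323 to 59411087 per siNsun2 library. The share of records that fell in no annotated gene was 19.6% to 20.2% in siControl and 28.9% to 29.9% in siNsun2. Olfactory receptor genes, which embryonic stem cells do not use, served as a gauge of that background: their 1135 genes held 1.59 to 1.77 counts per kb in siControl and 2.48 to 2.73 in siNsun2, so that the groups did not overlap. The smallest p that an exact two-sided permutation test over 3 libraries against 3 can give, 0.1, was reached for both measures. Because a weak gene shares this background, genes were separated by their counts per kb relative to olfactory receptor genes in the same library. A gene at 10 times or more was taken as well above background. CPM, the usual counts-per-library unit, are gene counts brought to a common library size by scaling on genes well above background, fold changes are log2 changes of siNsun2 over siControl with their standard error (SE), and calls are genes with an adjusted p below 0.05 in the edgeR quasi-likelihood test with Benjamini-Hochberg adjustment over all 27603 genes tested.

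The cells carried the markers of embryonic stem cells. Of 8 such markers, 7 stood well above background, among them Pou5f1, Nanog, Esrrb and Zfp42, and their summed level ran from 1160.0 to 1190.0 CPM in siControl and from 1140.0 to 1150.0 CPM in siNsun2. The eighth, Sox2, held 0 counts in every library. Of 6379 genes that lie inside another gene on the same strand, 99.8% held 0 counts, against 7.1% of genes inside a gene on the opposite strand, so reads shared by 2 genes of a strand had been set aside in counting. Genes with an overlapping neighbour on their own strand are called overlapping below, and their values are uncertain for this reason. Markers of feeder fibroblasts summed to 33.3 to 36.3 CPM in siControl and 33.9 to 37.0 CPM in siNsun2, with Col1a1 the single marker of 8 well above background. No marker of primitive endoderm, trophoblast or neuroectoderm stood well above background. Their summed levels were 21.4 to 22.5, 4.68 to 5.42 and 1.33 to 1.5 CPM in siControl and 21.9 to 27.0, 6.58 to 9.39 and 2.97 to 3.49 CPM in siNsun2.

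Nsun2 itself fell in every siNsun2 library, but by little. The gene (chr13:69533746-69635780, GRCm38, plus strand) held 124, 118 and 121 CPM in the siControl libraries and 105, 114 and 109 CPM in the siNsun2 libraries, with no overlap between the groups. Over all genes well above background, the median absolute log2 change was 0.11 and 37.4% were called. The log2 change of Nsun2 was -0.14 ± 0.030 (SE; adjusted p = 7.69e-05), not far from that median in size. Reads were counted over the whole gene with its introns, so this value takes in unspliced Nsun2 RNA on chromatin. It does not measure the cytoplasmic mRNA that an siRNA acts on, and depletion at the protein level was not measured in these libraries.

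Among 11235 tested genes well above background, 4206 (37.4%) were called: 2036 (18.1%) were higher and 2170 (19.3%) lower in siNsun2. Nearly all of these changes were small. Only 57 of the higher and 15 of the lower genes changed 2-fold or more, and 9 in 10 genes of this class lay between -0.32 and 0.47 on the log2 scale around a median of 0.0036. Weak genes gave another picture. Of 4739 genes at 3 to 10 times background, 1606 (33.9%) were higher and 130 (2.74%) lower. Of 11614 genes under 3 times background, 6919 (59.6%) were higher and 1 (0.00861%) lower, with a median log2 change of 0.88. The olfactory receptor counts per kb, over all 1135 genes and relative to all records, were 1.48 times as high in siNsun2 as in siControl. These records include reads outside annotated genes, whose share differed between the groups, so this ratio is not in the CPM used here. In CPM, the olfactory receptor genes summed to 203 to 226 in siControl and 354 to 391 in siNsun2. The part of the background in the rise of weak genes was not tested, and the account below rests on genes well above background unless it says otherwise. Counts of called list members below stand beside 18.1% higher and 19.3% lower over all genes well above background. The lists were chosen with earlier results of these data known, so these counts are description and not a test.

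**Figure D1:**
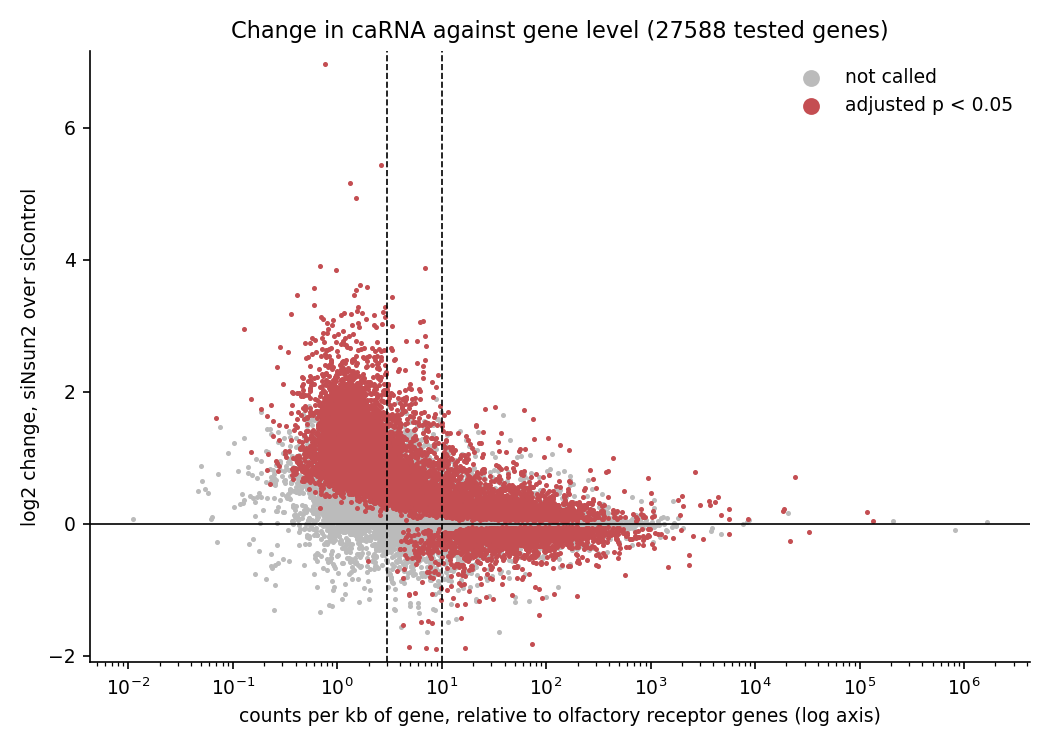
Log2 change of siNsun2 over siControl (vertical axis) against the gene's counts per kb relative to olfactory receptor genes (horizontal, log axis) for 27588 tested genes with a known span. Dashed lines mark 3 and 10 times background. Called genes, in red, lie on both sides of 0 to the right of the second line (2036 higher, 2170 lower) and lie above 0 to the left of the first (6919 higher, 1 lower).

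Where the zero lies depends on the scaling. Scaling by TMM over all tested genes, weak ones included, lowered the median of genes well above background to -0.19 and split the calls among them into 531 higher and 6323 lower. DESeq2 size factors lowered it to -0.25, with 358 higher and 7260 lower. By construction such a shift leaves the distance between a gene list and the other genes well above background as it was, but a rise or a list median smaller than the shift turns to a fall. Of 210 members of the lists below that were called higher, 75 turned lower under TMM over all genes and 111 under DESeq2 size factors. The tables held 0 lines for spike-in RNA, and a shift of all caRNA together would leave no trace in them.

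Most targets of the transcription factor ATF4 fell. When amino acids run short or proteins misfold, ATF4 is translated and switches on genes for amino acid synthesis, uptake and tRNA charging. Of 20 ATF4 and stress-response targets well above background, 14 fell and 0 rose, beside 19.3% and 18.1% over all genes of that class. The targets had a median log2 change of -0.62 and a range from -1.81 to 0.044. The count of lower genes was 19 under TMM over all genes and 19 under DESeq2 size factors, with 0 higher under both. Atf4 itself held 31.0, 29.1 and 30.4 CPM in the siControl libraries and 28.3, 29.6 and 27.3 CPM in the siNsun2 libraries. These values overlapped between the groups, and its log2 change of -0.087 ± 0.056 did not pass the test (adjusted p = 0.196).

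Chac1, which degrades glutathione and is a well-known ATF4 target, held 8.92, 10.7 and 11.5 CPM in the siControl libraries and 2.84, 3.21 and 2.82 CPM in the siNsun2 libraries. All 3 siNsun2 values were below every siControl value, and the log2 change was -1.81 ± 0.13 (adjusted p = 2.55e-19). Asparagine synthetase, Asns, had the highest counts per kb of the list (565 times background), with 394, 395 and 389 CPM in the siControl libraries and 231, 225 and 232 CPM in the siNsun2 libraries (-0.78 ± 0.021, adjusted p = 9.67e-40). Pck2, the mitochondrial enzyme that makes phosphoenolpyruvate, held 38.9, 40.9 and 40.4 CPM in the siControl libraries and 15.1, 16.8 and 14.1 CPM in the siNsun2 libraries (-1.38 ± 0.061, adjusted p = 1.17e-28). The groups did not overlap for any of these genes. Gpt2, an alanine aminotransferase of mitochondria, had 119, 119 and 119.6 CPM in the siControl libraries and 62.2, 60.7 and 56.6 CPM in the siNsun2 libraries (-0.99 ± 0.033, adjusted p = 7.72e-35). Among stress regulators, the chromatin protein gene Nupr1 changed by -1.08, the pseudokinase gene Trib3 by -0.83, the AP-1 repressor gene Jdp2 by -0.84 and the mTORC1 inhibitor gene Ddit4 by -0.65 on the log2 scale. Pycr1, of proline synthesis, changed by -0.69, and the lipoprotein receptor gene Vldlr by -1.12. Ddit3, which encodes the stress factor CHOP, and Aldh18a1, of proline synthesis, fell by 0.44 and 0.58 but share sequence with a neighbour on the same strand. The other members not called, Atf5, Cebpg (overlapping), Sesn2 (overlapping), Stc2 and Ero1l, lay between -0.092 and 0.044. Atf3, at 5.25 times background, had a log2 change of -0.52 (adjusted p = 1.18e-04), where the median over genes at 5 to 10 times background was 0.22.

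Genes for serine synthesis and tRNA charging were lower as well. Of 19 enzymes of serine, glycine and one-carbon metabolism, 11 fell and 3 rose (median -0.14). Enzymes of each of the 3 steps from glycolysis to serine fell: Phgdh changed by -0.50 ± 0.044, Psat1 by -0.59 ± 0.031 and Psph by -0.47 ± 0.076. Psat1 held 123, 130.5 and 126 CPM in the siControl libraries and 86.2, 84.2 and 80.9 CPM in the siNsun2 libraries. Shmt2, which makes glycine and a folate one-carbon unit in mitochondria, changed by -0.50 ± 0.052, and its partner Mthfd2 by -0.80, with an overlapping neighbour. The cytosolic counterparts Shmt1 and Mthfd1 were not called, at -0.014 and -0.028. Members that rose were Tyms (0.13), Mat2a (0.15) and Tdh (0.21), the threonine dehydrogenase on which mES cells draw for glycine. Under TMM over all genes 16 members were lower and 0 higher.

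Of 20 cytosolic aminoacyl-tRNA synthetases, which join each amino acid to its tRNA, 14 fell and 0 rose, with a median of -0.26 (20 lower under both other scalings). Over all genes well above background, 19.3% fell and 18.1% rose. Gars, the glycyl enzyme, held 249.6, 253 and 255 CPM in the siControl libraries and 159, 164 and 164 CPM in the siNsun2 libraries (-0.64 ± 0.024, adjusted p = 9.48e-33). Nars (-0.63), Sars (-0.50) and Lars (-0.44) followed, and Aars (-0.47) has an overlapping neighbour. The members not called were Kars (-0.07), Hars (-0.039), Vars (-0.021), Dars (0.0062), Qars (0.025) and Farsa (0.06, overlapping). The list of 23 tRNA modification enzymes, by contrast, had 2 higher and 3 lower members around a median of 0.035. Pus3 (-0.24), Elp2 (-0.089) and Alkbh8 (-0.078, overlapping) fell, and Tyw1 (0.20) and Pus7 (0.11) rose but turned to -0.057 and -0.15 under DESeq2 size factors.

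Amino acid transporters divided. Of 15, 8 fell and 4 rose (median -0.15). The glutamine carrier Slc1a5 held 129, 133 and 128 CPM in the siControl libraries and 87.3, 85.7 and 86.0 CPM in the siNsun2 libraries (-0.59 ± 0.029). Slc7a5 and Slc3a2, the light and heavy chains of the large neutral amino acid exchanger, changed by -0.53 and -0.22, and the cationic amino acid carrier Slc7a1 by -0.49. In the other direction, Slc43a1 changed by 0.46, Slc7a3 by 0.40, Slc25a22 by 0.30 and Slc38a2 by 0.16. Under DESeq2 size factors the split was 12 lower and 1 higher. Slc7a11, the cystine exchanger, lay at background (1.09 times) and gives no reading.

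**Figure D2:**
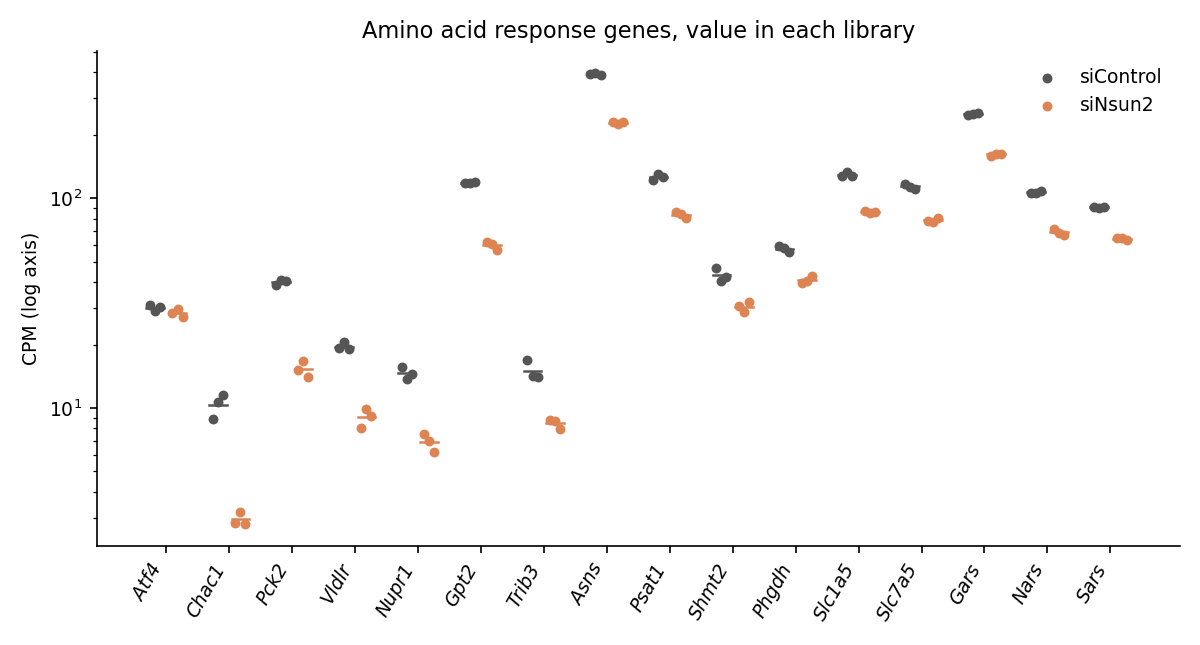
CPM (log axis) of Atf4 and 15 genes of the amino acid response in each of the 3 siControl (grey) and 3 siNsun2 (orange) libraries, with lines at the group means. The libraries of the groups overlap for Atf4, between 27.3 and 31.0 CPM, and do not overlap for the other 15 genes.

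Glutathione and antioxidant genes moved in both directions. NRF2, encoded by Nfe2l2, induces enzymes that make and recycle glutathione and is held back by KEAP1. Of 18 members, 9 rose and 5 fell, with a median of 0.14 that turned to -0.058 under TMM over all genes (6 higher, 8 lower) and to -0.12 under DESeq2 size factors (2 higher, 9 lower). Relative to all genes well above background it was 0.13, or 0.036 and 0.063 with the limit at 5 and 20 times background. Those that rose included the sulfiredoxin gene Srxn1 (0.46 ± 0.11), the quinone reductase gene Nqo1 (0.42 ± 0.081), Gclc (0.40 ± 0.029) and Gclm (0.32) of the rate-limiting step of glutathione synthesis, Gpx1 (0.38) and Txnrd1 (0.34). Gclc held 94.7, 99.6 and 97.0 CPM in the siControl libraries and 128, 131 and 126 CPM in the siNsun2 libraries. Gclm, Txnrd1 and Gsr have overlapping neighbours. Cth, which makes cysteine from cystathionine and is also a target of ATF4, went the other way with 114, 115 and 112 CPM in the siControl libraries and 51.7, 52.7 and 51.3 CPM in the siNsun2 libraries (-1.13 ± 0.033, adjusted p = 9.40e-38), and it too has an overlapping neighbour. Hmox1, the haem oxygenase gene, fell (-0.49 ± 0.076), as did Gss (-0.20) and Nfe2l2 itself (-0.13, overlapping), while Keap1 rose (0.22).

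Most p53 targets rose. Of 21 p53 genes and targets well above background, 16 rose and 0 fell, beside 18.1% and 19.3% over all genes of that class. The median of the list was 0.29. The split was 10 higher and 3 lower under TMM over all genes and 4 higher and 7 lower under DESeq2 size factors, so the direction of the smaller changes depends on where zero is set. Trp53, which encodes p53, held 46.9, 51.2 and 48.2 CPM in the siControl libraries and 63.3, 67.2 and 68.0 CPM in the siNsun2 libraries. The groups did not overlap, and the log2 change was 0.44 ± 0.041 (adjusted p = 3.84e-14). Plk2, a stress-induced kinase, had the largest change of the list, with 5.84, 6.83 and 8.25 CPM in the siControl libraries and 12.7, 12.8 and 12.3 CPM in the siNsun2 libraries (0.85 ± 0.10). The antiproliferative gene Btg2 changed by 0.58 ± 0.11, the kinase gene Plk3 by 0.49, the apoptotic nuclease gene Aen by 0.45 ± 0.037 and the damage sensor gene Gadd45a by 0.35. Mdm2, whose protein degrades p53, changed by 0.33 ± 0.026. The cell cycle inhibitor gene Cdkn1a changed by 0.15 ± 0.036 and the proapoptotic genes Bax and Pmaip1 by 0.20 and 0.29, Bax with an overlapping neighbour. Bbc3, Ei24, Mdm4, Phlda3 and Sesn1 (overlapping) were not called.

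Core pluripotency genes did not move as one. Naive pluripotency is held by LIF acting through STAT3 and by blocking ERK and GSK3, and on leaving it cells pass through a formative state marked by new methyltransferases and ZIC factors. Of 23 pluripotency genes, 9 rose and 6 fell, around a median of 0.022. Pou5f1 changed by 0.20 ± 0.054 and Nanog by 0.079 ± 0.029. Esrrb, at 496 CPM, was not called (0.029), nor were Zfp42 (-0.05), Dppa5a (-0.024) and Prdm14 (0.018). The members that fell included the Krüppel-like factors and Tbx3. Klf4 held 63.0, 58.4 and 57.4 CPM in the siControl libraries and 38.1, 39.4 and 39.1 CPM in the siNsun2 libraries (-0.62 ± 0.044, adjusted p = 5.33e-19), Tbx3 held 128, 129 and 123 CPM in the siControl libraries and 86.8, 86.3 and 86.1 CPM in the siNsun2 libraries (-0.55 ± 0.029), and Klf2, Klf5 and Tfcp2l1 changed by -0.23, -0.23 and -0.46, the last with an overlapping neighbour. The groups did not overlap for Klf4 or Tbx3. Those that rose included Dppa3, which protects DNA methylation in the early embryo, with 3.37, 3.35 and 3.65 CPM in the siControl libraries and 6.06, 6.72 and 6.04 CPM in the siNsun2 libraries (0.86 ± 0.14), the chromatin factor gene Utf1 (0.72 ± 0.17), the TGF-beta ligand gene Gdf3 (0.48 ± 0.061) and the partners Dppa2 (0.34) and Dppa4 (0.36). Under TMM over all genes 5 rose and 14 fell.

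Genes of the formative and primed states were higher. Of 10 well above background, 7 rose and 0 fell, with a median of 0.42, while 6 rose under TMM over all genes, 5 rose under DESeq2 size factors and 0 fell under either. The zinc finger gene Zic2 held 9.26, 11.8 and 8.99 CPM in the siControl libraries and 21.9, 18.6 and 19.9 CPM in the siNsun2 libraries, a clear gap between the groups (1.01 ± 0.086, adjusted p = 1.04e-15). Its neighbour Zic5 changed by 0.81 ± 0.072. The de novo methyltransferase genes Dnmt3a and Dnmt3b changed by 0.51 ± 0.051 and 0.39 ± 0.043, and Lin28a and Lin28b, which block let-7 maturation, by 0.32 and 0.33. Members not called were Foxd3 (0.51, overlapping), Sox4 (0.14) and Pim2 (-0.028). Of 9 members under 10 times background, where 52.1% of all genes were called higher, 3 were called higher, and the primed markers Fgf5 (1.03 times background) and Otx2 (4.39 times, overlapping) were not called.

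ERK signalling induces genes of its own feedback. Among 12 genes of the FGF and ERK pathway, 6 rose, 0 fell and 6 were not called, a split that became 2 higher and 5 lower under TMM over all genes. The 6 not called all had negative changes, the lowest at -0.34. The ETS factor gene Etv4 held 5.25, 5.39 and 4.67 CPM in the siControl libraries and 10.0, 10.4 and 8.74 CPM in the siNsun2 libraries (0.93 ± 0.11), and its relative Etv5 held 199, 199 and 190.5 CPM in the siControl libraries and 259, 259.9 and 256 CPM in the siNsun2 libraries (0.40 ± 0.023). The ERK phosphatase gene Dusp6 changed by 0.56 ± 0.21, with low counts at 1.53, 2.02 and 1.33 CPM in siControl and 2.67, 2.05 and 2.48 CPM in siNsun2, and its call was lost in 4 of the 6 fits that left out 1 library (siControl 1, siControl 3, siNsun2 1 or siNsun2 3). Dusp5 changed by 0.47, a call lost without siControl 1 or siNsun2 1. Receptor gene Fgfr1 changed by 0.23, whereas the ligand gene Fgf4 (-0.061) and the inhibitors Spry1, Spry2 and Spred1 were not called. In the LIF pathway, 3 of 12 genes rose and 4 fell. Those that fell were the direct STAT3 targets Socs3 (-0.40 ± 0.087), Pim1 (-0.36 ± 0.072) and Pim3 (-0.33) and the kinase gene Jak1 (-0.16, overlapping). Those that rose were the feedback gene Socs2 (0.19) and the receptor genes Lifr (0.10) and Il6st (0.21). Stat3 was not called (-0.027), while 0 members were higher and 8 lower under TMM over all genes as under DESeq2 size factors.

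Wnt genes moved in both directions. CHIR99021 stabilises beta-catenin in these cells. Of 10 Wnt and TCF-LEF genes, 4 rose and 2 fell (2 and 7 under TMM over all genes). The caudal factor gene Cdx1 held 26.2, 24.8 and 25.9 CPM in the siControl libraries and 13.0, 13.8 and 13.8 CPM in the siNsun2 libraries (-0.92 ± 0.069, adjusted p = 7.90e-18). Notum, which removes the lipid from Wnt ligands, went up with 15.5, 16.4 and 13.9 CPM in the siControl libraries and 25.8, 25.3 and 26.4 CPM in the siNsun2 libraries (0.76 ± 0.069), and Ccnd1, cyclin D1, changed by 0.64 ± 0.097. Axin2, the usual reporter of the pathway, was not called (-0.11 ± 0.052, adjusted p = 0.0854). Lef1, at 8.62 times background and overlapping, held 19.2, 17.2 and 16.7 CPM in the siControl libraries and 55.2, 57.2 and 56.1 CPM in the siNsun2 libraries (1.66 ± 0.053). Of 20 Nodal and BMP genes, 4 rose and 3 fell, near the shares over all genes well above background (18.1% and 19.3%). The Nodal antagonist gene Lefty2 changed by -0.52 ± 0.032, while Lefty1 (0.056) was not called and Nodal itself changed by 0.16 with overlapping groups. The BMP target gene Id3 changed by 0.63 ± 0.23 at about 1.27 CPM in siControl, a call lost without siControl 1, siNsun2 1 or siNsun2 3. Notch genes were mostly higher, with 8 of 14 Notch and Hedgehog genes up and 3 down (4 and 6 under TMM over all genes). The ligand gene Jag1 held 32.4, 31.4 and 34.7 CPM in the siControl libraries and 54.0, 52.9 and 55.8 CPM in the siNsun2 libraries (0.72 ± 0.046), the receptor gene Notch3 changed by 0.53 ± 0.043 and Notch1, overlapping, by 0.41. The Notch target gene Hes1 fell (-0.44 ± 0.13, a call lost without siControl 2), as did Gli2 (-0.33) and Rbpj (-0.081).

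**Figure D3:**
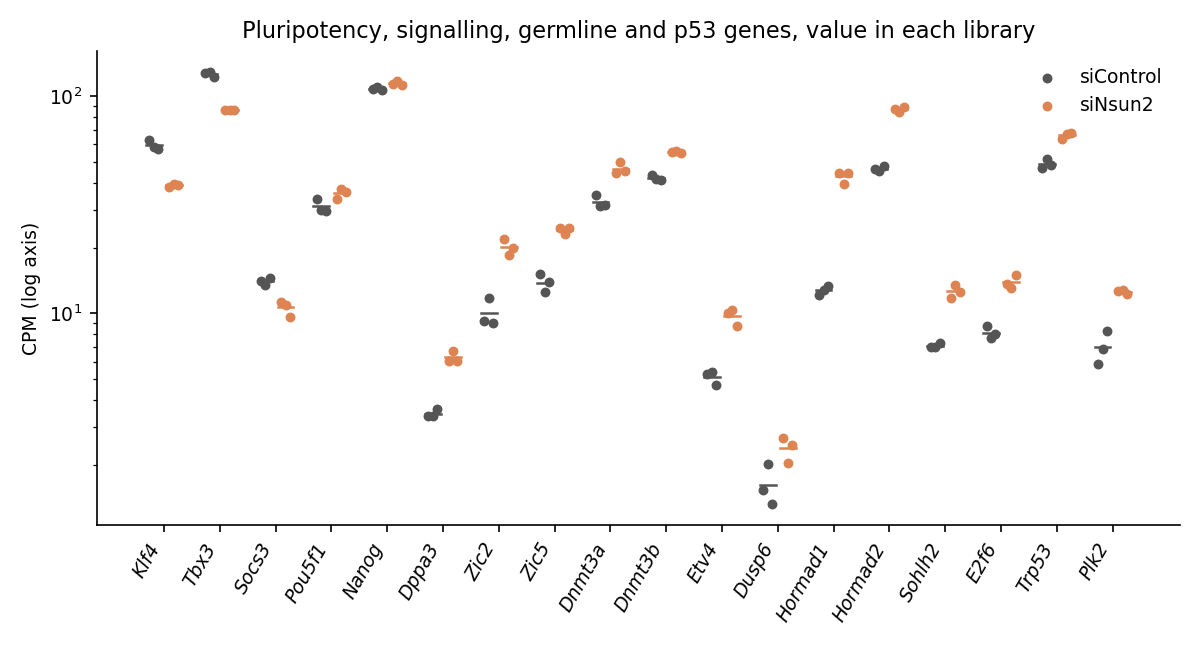
CPM (log axis) of 18 genes of pluripotency, signalling, the germline, Polycomb and p53 in each of the 3 siControl (grey) and 3 siNsun2 (orange) libraries, with lines at the group means. Klf4, Tbx3 and Socs3 lie lower in every siNsun2 library, while Hormad1, at 12.1 to 13.4 CPM in siControl and 39.3 to 44.5 CPM in siNsun2, has the widest gap upward.

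A germline gene had the largest increase among called protein-coding genes well above background that have no overlapping neighbour. Hormad1 (chr3:95559677-95587671, GRCm38), which lines meiotic chromosome axes, held 12.1, 12.8 and 13.4 CPM in the siControl libraries and 44.5, 39.3 and 44.5 CPM in the siNsun2 libraries (1.74 ± 0.062, adjusted p = 1.80e-33). Its paralogue Hormad2 held 46.3, 45.3 and 47.5 CPM in the siControl libraries and 87.3, 84.7 and 89.3 CPM in the siNsun2 libraries (0.91 ± 0.037). The germ cell factor gene Sohlh2, near the limit at 10.1 times background, changed by 0.83 ± 0.098, the meiotic cohesin gene Rec8 by 0.59 ± 0.10, the recombinase gene Dmc1 by 0.40 (overlapping) and the helicase gene Ddx4 by 0.36. Stra8, which retinoic acid induces at meiotic entry, fell (-0.38 ± 0.094). In all, 8 of 13 members rose and 1 fell, against 6 and 4 under TMM over all genes. Another 27 members were weaker, of which 18 were called higher, beside 33.9% of all genes at 3 to 10 times background and 59.6% under 3 times. Among them Smc1b, the meiotic cohesin subunit at 6.07 times background, held 6.54, 5.30 and 6.70 CPM in the siControl libraries and 26.4, 25.7 and 24.1 CPM in the siNsun2 libraries (2.04 ± 0.084), a change above the median of 0.22 for genes at 5 to 10 times background. Of 17 tested genes of the 2-cell-like state 13 were called higher, with 0 of them well above background. Among all genes, 33.9% were called higher at 3 to 10 times background and 59.6% under 3 times. No excess is read from so few weak genes. Zscan4d, for one, held 0.208, 0.174 and 0.0458 CPM in the siControl libraries and 0.883, 0.608 and 0.860 CPM in the siNsun2 libraries, at 2.46 times background. The siControl libraries alone would not have brought it through the filter.

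E2F6 and the PRC1.6 form of Polycomb keep germline genes silent in mES cells. E2f6 was itself higher, with 8.74, 7.69 and 7.99 CPM in the siControl libraries and 13.7, 13.1 and 15.0 CPM in the siNsun2 libraries (0.77 ± 0.093, adjusted p = 2.58e-10). Its partner genes Pcgf6 and Max were not called (-0.057 and -0.018, the latter overlapping), and Mga changed by -0.17 ± 0.019. Across 28 Polycomb genes, 7 rose and 8 fell around a median of -0.016 (2 and 21 under TMM over all genes). Pcgf1, of the PRC1.1 complex, was the lowest (-0.64 ± 0.14), Cbx2, a PRC1 reader of H3K27me3, changed by -0.40 (a call lost without siControl 2 or siNsun2 1) and the PRC1.1 partner Bcor was higher (0.33). In PRC2, the catalytic subunit gene Ezh2 changed by 0.079, Suz12 by -0.17, Jarid2 by 0.15 and Mtf2 by -0.22. Of 23 genes for retroelement silencing and H3K9 methylation, 4 rose and 5 fell, near the shares over all genes well above background. Uhrf1, which brings the maintenance methyltransferase to DNA, changed by -0.34 and the remodeller gene Hells by -0.23. Fam208a, of the HUSH silencing complex, and Trim28, the corepressor of zinc finger proteins, rose by 0.25 and 0.21 but turned to -0.0073 and -0.047 under DESeq2 size factors, and the methyltransferase gene Setdb1 was not called (0.046).

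The enzymes and readers around RNA m5C changed little. Of 20 genes of the RNA m5C, TET2 and PR-DUB pathway, 5 rose and 4 fell, with a median of 0.01. Over all genes well above background, 18.1% rose and 19.3% fell. Besides Nsun2, the related mitochondrial methyltransferase gene Nsun4 was lower (-0.39 ± 0.069), as was Nsun6 (-0.22, overlapping). Tet2 held 409, 414 and 406 CPM in the siControl libraries and 352, 351 and 351 CPM in the siNsun2 libraries (-0.22 ± 0.020, adjusted p = 6.90e-15), a small fall with no overlap between the groups. The reader genes Mbd5 (-0.03, overlapping) and Mbd6 (0.039), the paraspeckle gene Pspc1 (-0.0061), Tet1 (-0.0003, overlapping), Ogt (0.02) and Bap1 (-0.13), the deubiquitinase of PR-DUB, were not called. Members that rose were Asxl1 (0.18), Hcfc1 (0.10), Foxk2 (0.086), Foxk1 (0.25) and Cxxc5 (0.29, overlapping), with 0 higher and 18 lower members of the list under DESeq2 size factors.

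Long noncoding RNAs held on chromatin included both directions, with 7 of 22 higher and 6 lower. Neat1, the scaffold of paraspeckles, changed by -0.32 ± 0.018 (overlapping), Firre by -0.30 and Malat1 by -0.13 (overlapping). The pluripotency-associated transcript Platr3 held 20.5, 21.4 and 21.1 CPM in the siControl libraries and 38.1, 37.2 and 35.9 CPM in the siNsun2 libraries (0.82 ± 0.056), and Platr7 changed by 0.56. Meg3, Rian and Mirg, maternally expressed RNAs of 1 imprinted region on chromosome 12, were all higher (0.52 ± 0.023, 0.40 ± 0.020 and 0.75 ± 0.036, each overlapping), and so the region between them was examined, a choice made after these values were seen. It spans chr12:109541001-109749460 (GRCm38). All 12 called genes among 47 tested there (25.5%) rose, beside 18.1% called higher over all genes well above background. The 12 include Meg3, Rian and Mirg, whose rises led to the choice of the region. The median log2 change of the 47 was 0.52. The 31 microRNA hairpin genes of the region had a median of 0.59, with 6 (19.4%) called higher, near the share over all genes. For 39 microRNA genes well above background elsewhere the median was 0.16 (5 higher, 1 lower). The snoRNA genes of the region had a median of 0.52, with 0 of 9 called by edgeR (0 at an unadjusted p under 0.05). The minus-strand gene Rtl1 changed by 0.43 (overlapping). Counts on a hairpin come from total RNA on chromatin and do not measure the mature microRNA. The hairpins of the 6 called microRNA genes are shown because they moved in the direction of the long transcripts around them. They held few reads, at 12 to 55.5 counts on average over the 6 libraries. The filter asked for a minimum count in 3 libraries, which 1 group alone can supply. Mir323 held 0.119, 0.047 and 0.107 CPM in siControl and 0.323, 0.226 and 0.371 CPM in siNsun2. It passed only through siNsun2, as did the snoRNA gene Gm23736. The medians of the region include such genes, and no shared direction of the small RNA genes is read from them. The sequences are those of the GENCODE annotation (GRCm38), plus strand, in DNA letters, 5′ to 3′.
Mir127 (chr12:109592846-109592915): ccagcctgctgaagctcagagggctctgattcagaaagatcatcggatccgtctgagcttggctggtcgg
Mir411 (chr12:109710175-109710256): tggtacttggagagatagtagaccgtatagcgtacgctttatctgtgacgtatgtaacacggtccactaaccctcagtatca
Mir1197 (chr12:109712317-109712436): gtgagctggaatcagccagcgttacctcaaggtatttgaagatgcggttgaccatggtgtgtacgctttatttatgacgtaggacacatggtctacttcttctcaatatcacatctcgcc
Mir323 (chr12:109712508-109712593): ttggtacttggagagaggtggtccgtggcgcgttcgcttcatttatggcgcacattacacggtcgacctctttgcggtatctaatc
Mir376c (chr12:109722718-109722803): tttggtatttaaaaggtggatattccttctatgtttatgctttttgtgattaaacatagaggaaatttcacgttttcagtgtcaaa
Mir300 (chr12:109724313-109724391): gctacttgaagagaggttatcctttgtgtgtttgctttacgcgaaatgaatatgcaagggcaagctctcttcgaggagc
Their log2 changes were 0.78 ± 0.31, 1.11 ± 0.44, 1.29 ± 0.54, 1.72 ± 0.70, 1.31 ± 0.55 and 1.2 ± 0.51 in that order, each with an adjusted p between 0.0305 and 0.0461.

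Among all protein-coding genes well above background with called, non-overlapping groups and no overlapping neighbour, 1282 were higher and 1414 lower. After Hormad1, the largest increases were in Serpine2 (1.53), an inhibitor of serine proteases, Ccdc85a (1.37), Zfp750 (1.37), Porcn (1.33), which lipidates Wnt ligands, Nkapl (1.26), Sulf1 (1.23), which trims heparan sulphate, and Apoa2 (1.21). Next came Hba-x (1.17), an embryonic globin gene, Enpp3 (1.17), Cd80 (1.14), Usp26 (1.14), the adhesion gene Mcam (1.13), Slc27a2 (1.12), a fatty acid carrier, and Inhbb (1.11), a subunit of activin B. Sulf1 held 89.6, 85.5 and 87.4 CPM in the siControl libraries and 205, 204 and 207 CPM in the siNsun2 libraries, with an SE of 0.027. Nkapl, Apoa2 and Hba-x held few reads, at 35.2, 54.2 and 44.2 counts on average over the 6 libraries. Their SEs were 0.39, 0.33 and 0.35, so their places in this order are uncertain. Serpine2, Nkapl, Enpp3 and Usp26 lay close to the limit, between 10.2 and 10.9 times background, and Ccdc85a at 12.1 times. These multiples are means over the 6 libraries. As a mean over siControl alone, these genes lay under 10 times, so they entered this ranking through the siNsun2 libraries.

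The largest decrease was in Tlx2, a homeobox gene of neural crest, with 1.74, 1.09 and 1.53 CPM in the siControl libraries and 0.374, 0.469 and 0.337 CPM in the siNsun2 libraries (-1.88 ± 0.32, adjusted p = 1.85e-06). Apart from the ATF4 and stress-response targets Chac1, Pck2, Vldlr, Nupr1, Gpt2, Jdp2 and Trib3 and the Wnt target Cdx1, the lowest 15 were Atp2a3 (-1.23), a calcium pump of the endoplasmic reticulum, Adm2 (-1.21), a peptide hormone gene, S100a13 (-1.14), Sat2 (-1.11), Serpinb6c (-1.02) and Xaf1 (-0.93). Tlx2, Adm2, Xaf1, Atp2a3, Vldlr and Serpinb6c stood at 12.8 to 18.4 times background as means over the 6 libraries. In siNsun2 alone they lay under 10 times, so they entered this ranking through the siControl libraries.

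Matrix genes changed on both sides. Of 16 integrin, laminin and collagen genes, 10 rose and 5 fell (1 and 9 under TMM over all genes). The laminin chain gene Lama1 held 256, 254 and 254 CPM in the siControl libraries and 142, 145 and 144 CPM in the siNsun2 libraries (-0.83 ± 0.024, adjusted p = 2.10e-38), whereas its partner chains Lamb1 (0.14, with overlapping groups) and Lamc1 (0.044, overlapping) rose. The linker gene Nid1 (-0.28) and the integrin genes Itga3 (-0.39) and Itga5 (-0.20, overlapping) fell and Itgb5 (0.36 ± 0.032) rose. Lists of other lineages held few genes well above background: 2 of ectoderm, 1 of mesoderm, 0 of endoderm, 3 of trophoblast and 2 of fibroblasts. In the trophoblast list, Tfap2c (0.62 ± 0.071) and the imprinted gene Peg10 (0.79 ± 0.089) rose and Tead4 (-0.51 ± 0.029) fell, genes that mES cells also use. The endoderm factor gene Gata4, at 4.37 times background, was lower (-0.69 ± 0.098). It stood against most called genes of that lineage. Of 14 tested genes of the endoderm list, all under 10 times background, 7 were called higher and 1 lower. Of all genes at that level, 52.1% were called higher. Of 9 interferon and double-stranded RNA genes, 1 rose and 3 fell: the RNA sensor gene Ddx58 changed by 0.60 ± 0.078, and Adar, Stat2 and Eif2ak2 by -0.26, -0.22 and -0.15. Ifit1, an inducible target, lay at 0.963 times background.

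Growth and housekeeping genes moved by small amounts. Of 34 genes of S phase and DNA replication, 11 fell and 2 rose (median -0.032), led by Gins2 (-0.31), Mcm4 (-0.24) and Pcna (-0.22). Of 35 G2/M genes, 15 fell and 2 rose (median -0.08), led by Ect2 (-0.26), Ccnb1 (-0.21) and Bub1 (-0.21). Of 20 glycolysis genes, 10 fell and 2 rose (median -0.10, or -0.059 relative to all genes well above background without siNsun2 2). The phosphofructokinase gene Pfkp changed by -0.39 ± 0.018, Hk1 by -0.33, the lactate dehydrogenase gene Ldha by -0.31 ± 0.039 and Aldoa by -0.26. Pdk1, whose kinase inhibits pyruvate dehydrogenase, changed by 0.26. Of 21 cholesterol genes 2 rose, led by Hsd17b7 (0.32), and 3 fell, led by Msmo1 (-0.27). Nuclear-encoded respiratory chain genes had 6 higher and 13 lower of 82 (median 0.022). Genes of the mitochondrial genome had 7 higher and 0 lower of 24 (median 0.15, which turned to -0.043 under TMM over all genes, or 0.070 relative to all genes well above background without siNsun2 1). Their share of gene counts was 1.17% to 1.21% in siControl and 1.27% to 1.31% in siNsun2 (exact two-sided permutation p = 0.1, the smallest that 3 against 3 allow).

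Of 32 splicing factors, 10 rose and 11 fell, within -0.17 and 0.23 (0 and 25 under TMM over all genes). Cytosolic ribosomal protein genes had 8 higher and 19 lower of 74 (median -0.025), and replication-dependent histone genes 1 higher and 12 lower of 60 (median -0.18). Reads of both can be set aside in counting, the histone genes being near-identical copies of one another. Of 299 zinc finger genes named Zfp, 46 rose and 59 fell, near the shares over all genes well above background. Among 13 small structured RNAs, 2 rose and 3 fell. Rn7sk, the RNA that holds the elongation kinase P-TEFb inactive, held 266, 239.9 and 239 CPM in the siControl libraries and 209, 208 and 207 CPM in the siNsun2 libraries (-0.26 ± 0.026), and Vaultrc5, a vault RNA of the kind that NSUN2 methylates, was not called (0.20 ± 0.44). Of the 21 listed that matched a gene, 7 held 0 counts.

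**Figure D4:**
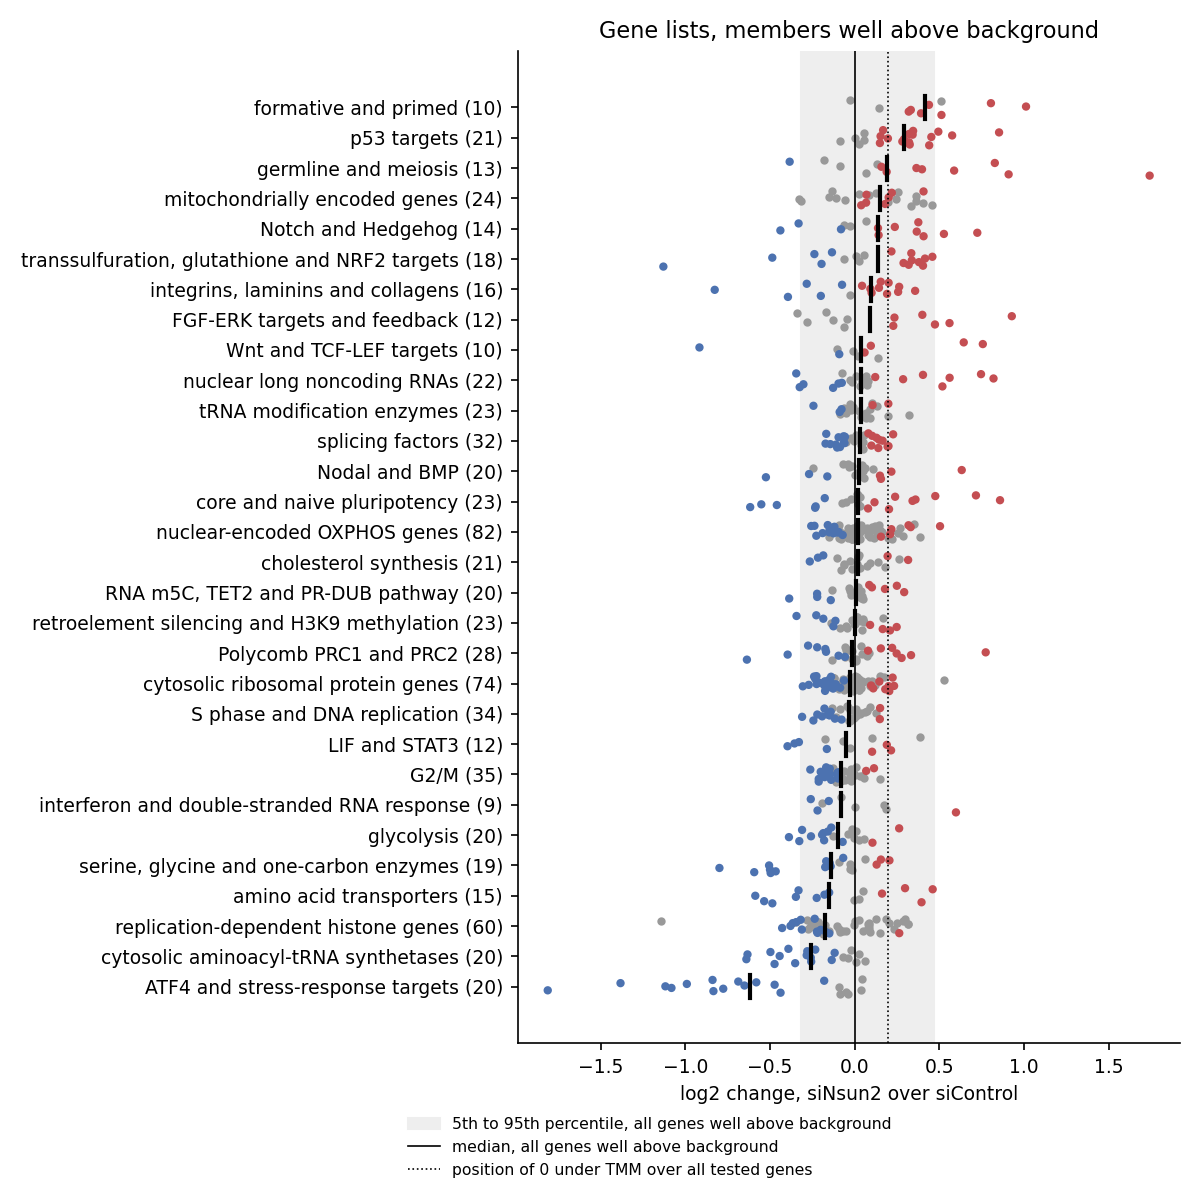
Log2 change of siNsun2 over siControl for members of 30 gene lists that stand well above background, with the number of members in brackets, called members in red (higher) or blue (lower), others in grey, and a black bar at each median. The ATF4 and stress-response targets have the lowest median (-0.62) and the formative and primed genes the highest (0.42). The grey band holds 9 in 10 genes well above background, and the dotted line shows where zero would lie under TMM over all tested genes.

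Classes of transcript and gene structure separated the changes weakly. Protein-coding genes well above background had a median log2 change of -0.0036 (n = 9548), with 19% higher and 21.7% lower. Antisense genes were higher in 17.3% and lower in 3.63% of cases (median 0.13, n = 248), and lincRNA genes in 19.2% and 10.8% (median 0.045, n = 334). Processed pseudogenes, whose short reads can belong to their parent genes, had a median of 0.067 (n = 494) and supplied 15 of the 57 genes that rose 2-fold, next to 26 protein-coding genes, 6 antisense genes and 5 microRNA genes. Genes of 10 to 20 times background had a median of 0.063 and genes of 100 to 200 times one of -0.019, and the classes were not matched for level. Protein-coding genes under 5 kb had a median of 0.050 (n = 1043) and those of 50 to 100 kb one of -0.022 (n = 1425). The share called was larger in long genes, which hold more counts: 11.6% higher and 7.67% lower under 5 kb against 30.8% and 36.3% at 100 to 200 kb. Over the chromosomes other than the mitochondrial one, the medians of genes well above background lay between -0.046 (chromosome 18) and 0.043 (chromosome 11).

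Weak genes were set apart for their closeness to background, and their values are given as such. The median log2 change was 0.93 for genes at 1 to 2 times background, 0.73 at 2 to 3 times, 0.49 at 3 to 5 times and 0.22 at 5 to 10 times. On the X chromosome, genes under 3 times background had a median of 0.75 (n = 362), against 0.84 to 0.98 on the autosomes. After subtraction of the olfactory receptor density, the weaker protein-coding genes with the largest increases were Slc25a21, Pkd1l1, Stk32b, Rsph14 and Btla, and those with the largest decreases Efhc2, Usp49, Brinp3, Gm3739 and Arhgap9. Near background the subtraction leaves little in the group with the lower value, and the size of a change after it cannot be read for these genes. Btla held 0.877, 0.917 and 0.915 CPM in the siControl libraries and 3.04, 3.38 and 3.46 CPM in the siNsun2 libraries before subtraction, and Rsph14 1.90, 1.98 and 2.09 CPM in the siControl libraries and 5.37, 6.04 and 5.40 CPM in the siNsun2 libraries. Both rose by more than the median of their level, as genes picked for the largest increases would. Arhgap9, at 9.79 times background, held 2.91, 3.62 and 3.10 CPM in the siControl libraries and 0.934, 1.80 and 1.57 CPM in the siNsun2 libraries (-1.16 ± 0.21, adjusted p = 4.77e-06). Gm3739 held 3.31, 3.35 and 3.91 CPM in the siControl libraries and 1.58, 2.05 and 2.36 CPM in the siNsun2 libraries (-0.82 ± 0.18), and Usp49, overlapping, 4.62, 3.48 and 3.97 CPM in the siControl libraries and 2.50, 2.46 and 3.21 CPM in the siNsun2 libraries (-0.56 ± 0.17). Efhc2 and Brinp3 were higher before subtraction (0.46 and 0.56) and lower after it, at 1.14 and 1.11 times background.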

How the data were processed

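Chromatin-associated RNA of 3 siNsun2 and 3 siControl mES cell libraries was analysed. Per the submitters' processing notes and the study's methods, the authors depleted ribosomal RNA, made stranded libraries with random priming, trimmed reads with Trimmomatic 0.39, aligned them to mm10 with HISAT2 2.2.1 and deposited raw counts per gene. The methods name HTSeq 0.12.4 for annotated genes and featureCounts for caRNAs, and the files end in the summary lines that HTSeq writes. Reads shared by 2 genes of a strand were not counted to either, so overlapping genes are undercounted. Lines for reads outside genes (19.6% to 29.9% of records), ambiguous reads (2.13% to 2.52%) and reads with several alignments (4.77% to 4.83%) were left out of library sizes and tests.

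Genes were matched to GENCODE (54409 of 54446 identifiers), and each gene's counts per kb of span were divided by those of olfactory receptor genes in the same library. These ratios were averaged over the 6 libraries. Counts were tested with the edgeR 4.0.16 quasi-likelihood test (robust, filterByExpr minimum count of 10) under R 4.3.3, two-sided, with TMM factors from genes at 10 times background or more and Benjamini-Hochberg adjustment over 27603 genes. Shares of reads were compared by exact two-sided permutation tests in SciPy 1.17.1. DESeq2 1.42.0, other scalings, filters and background limits, a replicate block, subtraction of background and leaving out each library served as alternatives. Named genes were the 15 highest and 15 lowest called, non-overlapping protein-coding genes well above background with no neighbour overlapping on their strand, the up to 4 largest called members of each list with its regulator or best known marker, and the 5 weaker protein-coding genes with the largest change in each direction after subtraction. Other members were named after their values were seen. The members and lists were chosen with earlier results of these data known. Lists are described by counts and medians, with no test. The depth and the 3 libraries a group set the precision. Promoter motifs were not analysed here, and some results are not reported here.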

Additional observations from a re-analysis of the deposited data

Results flagged for a closer look

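Reads outside annotated genes, which enter no comparison of genes, made up 29.4% ± 0.464 (SD, n = 3) of records in siNsun2 and 19.9% ± 0.348 (SD, n = 3) in siControl, 1.47 times as much, and every siNsun2 library lay above every siControl library (exact two-sided permutation p = 0.1, the smallest that 3 against 3 allow; 0.111 adjusted over 10 measures). They drew attention as a signal above its level in the control libraries. Olfactory receptor counts per kb differed by a like ratio (1.53). The origin of these reads was not tested.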

How the results depend on the processing

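The counts of genes well above background depended on the scaling. The 2036 higher and 2170 lower genes became 531 and 6323 under TMM over all tested genes and 358 and 7260 under DESeq2 size factors, and 57 and 15 with a 2-fold change in addition. Among weaker genes, 8525 higher became 3954 with a 2-fold change in addition, and 131 lower became 394 under TMM over all tested genes, 531 under DESeq2 size factors, 26 and 341 with the limit at 5 and 20 times background, and 12 with a 2-fold change in addition. The cause was not tested beyond the shift of zero that each scaling makes by construction. Leaving out 1 library at a time gave 1772 to 1872 higher and 1873 to 2106 lower genes well above background, and 7025 to 8007 higher and 94 to 124 lower weaker genes.

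The median of the aminoacyl-tRNA synthetases relative to all genes well above background, -0.26, was -0.28 and -0.25 with the limit at 5 and 20 times, -0.25 after subtraction of background and -0.27 to -0.25 without 1 library. That of p53 targets, 0.29, was 0.31 with the limit at 20 times and 0.26 to 0.33 without 1 library. That of ATF4 and stress-response targets, -0.62, ranged from -0.65 to -0.54 without 1 library.

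Of the genes named by rule, these turned sign. After subtraction of background, which leaves little of genes this weak so that the sizes cannot be read, Efhc2 was at -3.97 and Brinp3 at -1.95. Under TMM over all tested genes, Pus7 was at -0.089, Znrf3 at -0.0995 and Srsf5 at -0.0008. Under DESeq2 size factors, Tyw1 was at -0.057, Pus7 at -0.15, Foxk1 at -0.0068, Fam208a at -0.0073, Trim28 at -0.047, Il6st at -0.041, Bmp7 at -0.040, Znrf3 at -0.16, Clk4 at -0.028, Srsf6 at -0.056, Srsf5 at -0.061 and Vim at -0.057. Other rises in the text smaller than the shift turned too, among them Pou5f1, Nanog, Cdkn1a, Bax, Tyms, Tdh, Lifr, Asxl1 and Keap1 under DESeq2 size factors. Calls were lost without a turn of sign for 15 of the 144 genes under TMM over all tested genes and 14 under DESeq2 size factors, and 12 moved after subtraction of background.

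Calls of single genes were lost on leaving out a library in 25 cases, against 839 kept: Hsd17b7, Dusp6, Dusp5, Id3 and Eif2ak2 without siControl 1, Cbx2, Bmp7, Hes1, Gins3 and Vim without siControl 2, Pus3, Elp2, Hsd17b7 and Dusp6 without siControl 3, Pus7, Hsd17b7, Cbx2, Dusp6, Dusp5, Id3, Eif2ak2 and Gins3 without siNsun2 1, and Elp2, Dusp6 and Id3 without siNsun2 3. Fewer libraries were tested in each.

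Replicate numbers are shared by the groups, but deviations of siControl and siNsun2 libraries correlated at -0.032 to 0.027 over the 9 pairs, so the numbers do not pair the libraries. With the replicate number as a block, 2019 higher and 2140 lower genes well above background were called, and none of the 144 named genes lost its call. Genes of few counts, such as the microRNA hairpins, are limited by depth.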
